A study of Homo sapiens with 54 samples.

Results

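The BCL2 family genes described here were 10 genes picked by symbol from the deposited expression table of 25435 genes: BCL2, BCL2L1, MCL1, BAX, BAK1, BBC3, PMAIP1, BCL2L11, BID and BAD. Every 1 of the 10 was in the table and passed the filter on low values that left 18013 genes for testing. RNA was sequenced from 6 established high-grade serous ovarian cancer cell lines that form 3 pairs, each pair from 1 patient. The platinum-resistant lines were PEA2, PEO4 and PEO23, and their platinum-sensitive partners were PEA1, PEO1 and PEO14. Cultures of each line received carboplatin, which damages DNA through platinum adducts, at 80 µM for 8 h or 24 h, or no drug, and each of these 18 groups had 3 libraries. The cells grew in RPMI medium with serum. Controls are labelled untreated although the series text speaks of a vehicle, and that text gives the dose in mM where the sample labels give µM. The series text places the replicates on 3 different days, so p-values measure the spread between cultures of a line. Both lines of a pair come from the same patient, so the 6 lines stand for 3 patients. No treated culture shares a passage label with the untreated culture of its line and number. The part of passage in the changes against untreated was not tested.

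The BCL2 family controls the permeability of the mitochondrial outer membrane, the step that commits a cell to intrinsic apoptosis. Pro-survival members (BCL2, BCL2L1, which encodes BCL-XL, and MCL1) bind and restrain the effectors BAX and BAK1, which form pores in that membrane and release cytochrome c. BH3-only members either block the pro-survival proteins or activate the effectors. Among them BBC3 encodes PUMA and PMAIP1 encodes NOXA, which binds MCL1 above all. BCL2L11 encodes BIM, BID is activated by caspase cleavage downstream of death receptors, and BAD is held inactive by phosphorylation. Much of the control of this family acts on proteins, which were not measured here.

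Expression was given as TPM, in which a gene's reads are divided by its length and set against the library's total, so that no read depth is kept. Of the 54 libraries, 12 listed fewer than 12000 genes above 0 and were left out. Earlier results of these data, in which some of these 12 resembled another line, were known when this filter was set. The 42 kept libraries listed 12877 to 17133 genes. No untreated PEO23 library was kept, so that line has no change against untreated. The groups of PEO4 at 24 h, PEO14 at 24 h and untreated PEA1 kept 1 library each, assumed in limma to vary like the other groups, and PEA2, PEO4 and PEO1 at 8 h kept 2 each. TPM was rescaled between libraries by the median ratio over 8287 genes, and changes are differences of log2(rescaled TPM + 1) with the standard error (SE) of 1 limma model. The added 1 makes the change of a low gene look smaller than it is. A gene was called at a Benjamini-Hochberg adjusted p under 0.05 over the 18013 genes. The median change of all genes over 5 lines was -0.22 at 8 h and -0.19 at 24 h, but -0.74 and -0.58 without rescaling, so each change below is relative to the bulk of genes. The makeup of the libraries differed with treatment too. Ribosomal protein genes held 14.7% to 24.9% of deposited TPM in 29 treated libraries and 7.54% to 14.6% in 13 untreated libraries, and the small RNAs RMRP and RPPH1 held 7.91% to 45.6% and 7.14% to 19.5%. The part of this difference in the results was not tested. The epithelial markers PAX8, EPCAM, KRT8, KRT18 and KRT7 were at 1 TPM or more in all 42 kept libraries, whereas WT1 was so in 35, MSLN in 30 and MUC16 in 21. The T cell gene CD3E was listed at 0 in 42 of 42, and the fibroblast gene DCN in 41. The summed TPM of 5 fibroblast markers was 0 to 30.4 in treated libraries and 1.47 to 71.3 in untreated libraries.

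The 10 genes differed widely in level. By median rescaled TPM over the 42 libraries, BCL2L1 (74.6) and MCL1 (74.4) led, closely followed by BAD (69.3), then BID (43.6), BAX (29.1), BAK1 (14.4), PMAIP1 (13.2), BBC3 (5.84), BCL2L11 (2.97) and BCL2 (1.56). BCL2 itself, the founding member, was listed at 0 in 5 libraries and never exceeded 8.59. The pro-survival genes together made up a median of 44.0% of the family's summed rescaled TPM, the BH3-only genes 40.3% and the effectors 13.1%. These shares set the 10 genes against each other within a library, so rescaling between libraries does not alter them. In bulk samples, fewer cells of a kind and less RNA per cell cannot be told apart. Across all groups the range was wide: the pro-survival share of a library ran from 10.7% to 71.1%, and the BH3-only share from 19.5% to 78.7%.

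The mean BH3-only share of the family was larger in treated than in untreated cells in each of the 5 lines with untreated libraries, at both times. Not every BH3-only gene took part, as the mean BCL2L11 share fell in each of these lines at both times. The BAD share moved in both directions. It went from 27.2% untreated to 39.3% in the single 24 h library of PEO4. In PEA1 it went from 11.3% in the single untreated library to 18.8% at 8 h, and in PEO1 from 21.1% untreated to 14.4% at 24 h. In PEO4 the mean BH3-only share was 47.6% in untreated, 71.6% in 8 h and 60.7% in 24 h cells, and the pro-survival share was 32.1%, 15.7% and 19.5% in the same order. In PEO1 the BH3-only share was 42.6%, 67.0% and 57.8%, and the pro-survival share was 39.2%, 18.2% and 27.9%. PEA2 had BH3-only shares of 37.6%, 40.1% and 45.0%, PEA1 of 25.4%, 35.8% and 37.5%, and PEO14 of 21.7%, 26.2% and 37.7%. PEO14 was the line with the most pro-survival transcript, at 68.7%, 64.6% and 52.4%, and in it BCL2L1 alone took 43.8% of the untreated total. PEO23, seen only in drug, stayed at pro-survival shares of 47.0% and 50.2% at 8 h and 24 h. These shares are given as descriptions, and no test was run on them.

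**Figure D1:**
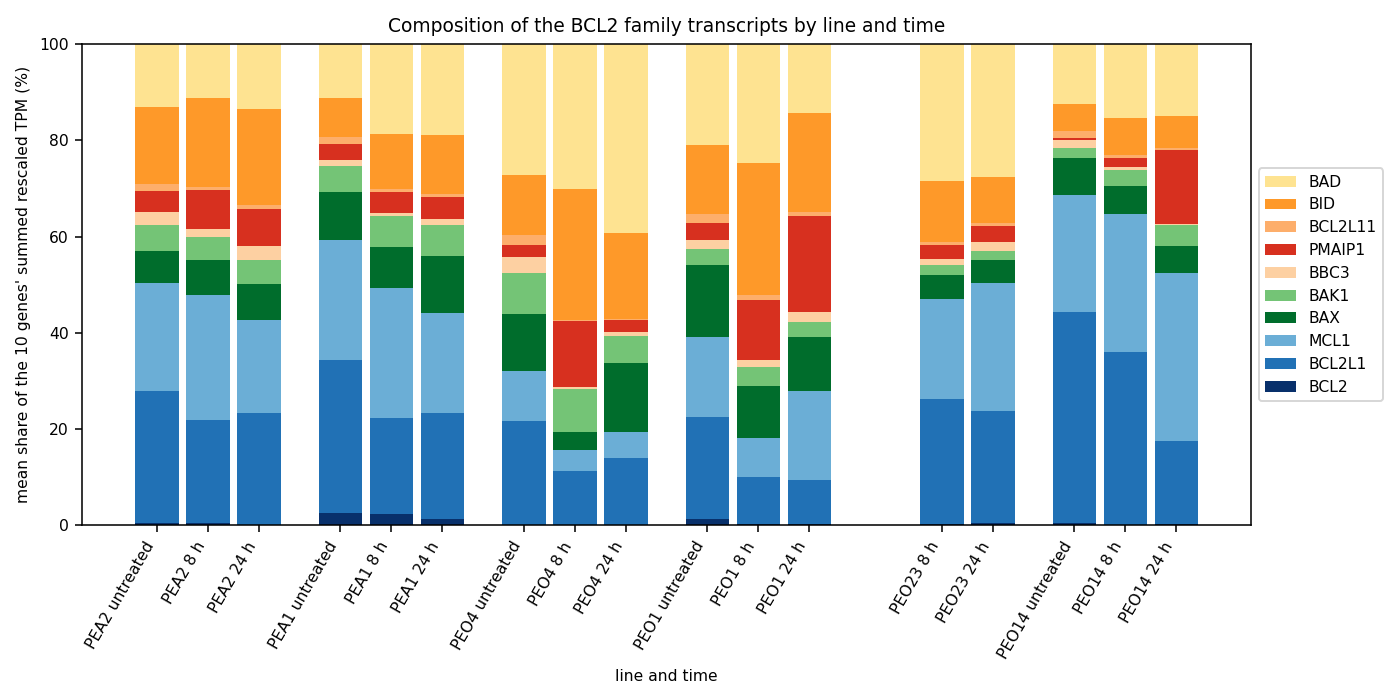
Mean share (%) of each of the 10 genes in the family's summed rescaled TPM, by line and time, over the kept libraries of each group, with BH3-only genes in yellow to red, effectors in green and pro-survival genes in blue. The blue part of the bar is smallest in PEO4 at 8 h (15.7%) and largest in untreated PEO14 (68.7%), and no untreated PEO23 library was kept.

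At 8 h of carboplatin PEO4 had the most calls among the 10 genes, as it had among all genes, and the gene that rose in the most lines was PMAIP1. Of 50 tests (10 genes in 5 lines) 5 were called higher, all of PMAIP1 or BID, and 6 lower, 11 in all. Of all tests of all genes in these comparisons 29.2% were called (10.4% higher, 18.7% lower). In PEO4 7 of the 10 genes were called, where 53.6% of all genes were. In PEO1 3 of 10 were called, against 41.9% of all genes, and in PEO14 1 of 10, against 30.1%. In PEA2 limma called none (1 gene at an unadjusted p under 0.05, 14.3% of all genes called), and in PEA1 none (0 genes at an unadjusted p under 0.05, 5.90% of all genes called). The members' share lay above that of all genes in PEO4 and below it in the other lines. With 10 genes these counts are descriptions, and their difference from the background was not tested. Without rescaling 1 test was called higher and 16 lower at 8 h, and with all 54 libraries 1 test was called. Rescaling over all 54 libraries rested on 392 genes, against 8287 in the main model.

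At 24 h against untreated 7 of 50 tests were called, 4 higher and 3 lower, where 23.6% of all tests of all genes were (8.40% higher, 15.2% lower). This count too is a description, and its difference from the background was not tested. The calls were in PEO1 (3 of 10, 38.6% of all genes), PEO14 (3 of 10, 36.2%) and PEO4 (1 of 10, 20.0%). In PEA2 limma called none (1 gene at an unadjusted p under 0.05, 17.3% of all genes called) and in PEA1 none (0 genes, 6.02%). Both treated times are set against the same untreated libraries, so they are not independent of each other. Without rescaling 2 tests were called higher and 7 lower at 24 h, and with all 54 libraries 3 were called.

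**Figure D2:**
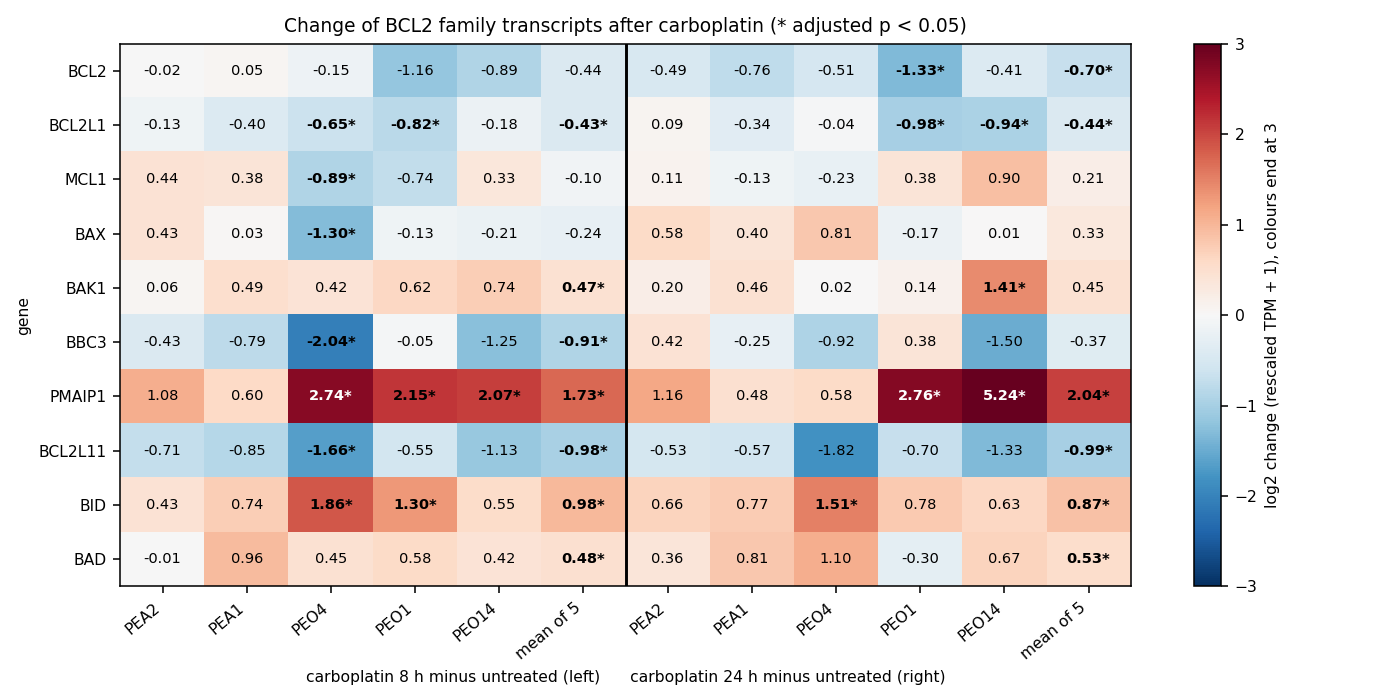
Change of each gene after 8 h (left) and 24 h (right) of carboplatin against untreated cells of the same line, as a difference of log2(rescaled TPM + 1), with the mean of 5 lines beside them and asterisks for an adjusted p under 0.05 (limma). PMAIP1 and BID are positive in all 5 lines at both times, and the PMAIP1 value of PEO14 at 24 h (5.24) rests on 1 treated library and lies beyond the end of the colour scale.

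PMAIP1, the NOXA gene, was the family member that rose most. In PEO14 it was at 0.782, 1.94 and 1.84 rescaled TPM untreated, at 8.73, 12.4 and 7.44 after 8 h and at 92.0 in the single 24 h library. In PEO1 it was at 17.9, 7.05 and 12.7 untreated, at 34.9 and 88.0 after 8 h and at 92.6, 81.2 and 82.6 after 24 h. PEO4 had 5.65, 10.9 and 9.68 untreated, 55.8 and 69.2 after 8 h, and 13.1 in the single library at 24 h. In rescaled TPM every treated library of these 3 lines lay above every untreated library of its line, and PEO4 at 24 h lay close to the untreated level. In deposited TPM PEO4 at 24 h overlapped the untreated libraries, as did PEO1 at 8 h, with 28.2 and 23.0 against 27.9, 10.1 and 20.5. The median ratio by which TPM was divided was 0.261 in library 2 of PEO1 at 8 h and 0.264 in library 2 of PEO4 at 8 h. In untreated PEO1 it was 1.558, 1.433 and 1.619, and in untreated PEO4 1.435, 1.151 and 1.353. The changes at 8 h were 2.74 (SE 0.46, adjusted p = 1.19e-05) in PEO4, 2.15 (SE 0.46, adjusted p = 0.000439) in PEO1 and 2.07 (SE 0.41, adjusted p = 0.000319) in PEO14. At 24 h they were 2.76 (SE 0.41, adjusted p = 7.19e-06) in PEO1 and 5.24 (SE 0.59, adjusted p = 1.68e-07) in PEO14, with 0.58 (SE 0.59, adjusted p = 0.54) in PEO4. The 24 h calls of PEO1 and PEO14 held in every alternative and leave-out that was run on them. The PEO1 call at 8 h was lost without its library 2 at 8 h (1.50, adjusted p = 0.0527). Without rescaling the 8 h change was 1.16 (adjusted p = 0.062) in PEO4 and 0.48 (adjusted p = 0.488) in PEO1, and with all 54 libraries the 8 h changes of PEO4, PEO1 and PEO14 were 2.20, 1.88 and 2.11 with adjusted p of 0.103, 0.242 and 0.21.

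The PEA pair had smaller values of PMAIP1 that did not pass. PEA2 was at 14.4, 5.74 and 11.8 rescaled TPM untreated, 16.0 and 30.7 at 8 h, and 28.3, 26.6 and 17.4 at 24 h, so all 5 treated libraries lay above the 3 untreated libraries. In deposited TPM they overlapped, with 21.06 in library 1 at 8 h and 20.35 in library 3 at 24 h, against 24.47 in untreated library 1. The PEA2 change was 1.08 (95% confidence interval 0.13 to 2.03, adjusted p = 0.121) at 8 h and 1.16 (0.31 to 2.01, adjusted p = 0.0509) at 24 h. PEA1 was at 8.63 in 1 untreated library, at 10.4, 14.4 and 16.6 at 8 h and at 9.37, 20.8 and 9.61 at 24 h, with changes of 0.60 (adjusted p = 0.696) and 0.48 (adjusted p = 0.792). PEO23 had 12.5, 13.4 and 10.9 at 8 h and 25.5, 16.8 and 6.54 at 24 h. Ordered by group mean, PMAIP1 was highest in PEO14 at 24 h (92.0) and PEO1 at 24 h (85.5), and the single PEO14 library lay within the PEO1 range. Next were PEO4 at 8 h (62.5) and PEO1 at 8 h (61.5), whose libraries overlapped. Library 2 of PEO1 at 8 h (88.05) also lay within the PEO1 range at 24 h. PEA2 at 24 h (24.1) and 8 h (23.4) followed, which overlapped too. Untreated PEO14 was lowest (1.52). Set beside the rest of its family, PMAIP1 took 3.45% of the PEO1 total untreated, 12.5% at 8 h and 19.9% at 24 h, and 0.34%, 1.94% and 15.3% of the PEO14 total.

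**Figure D3:**
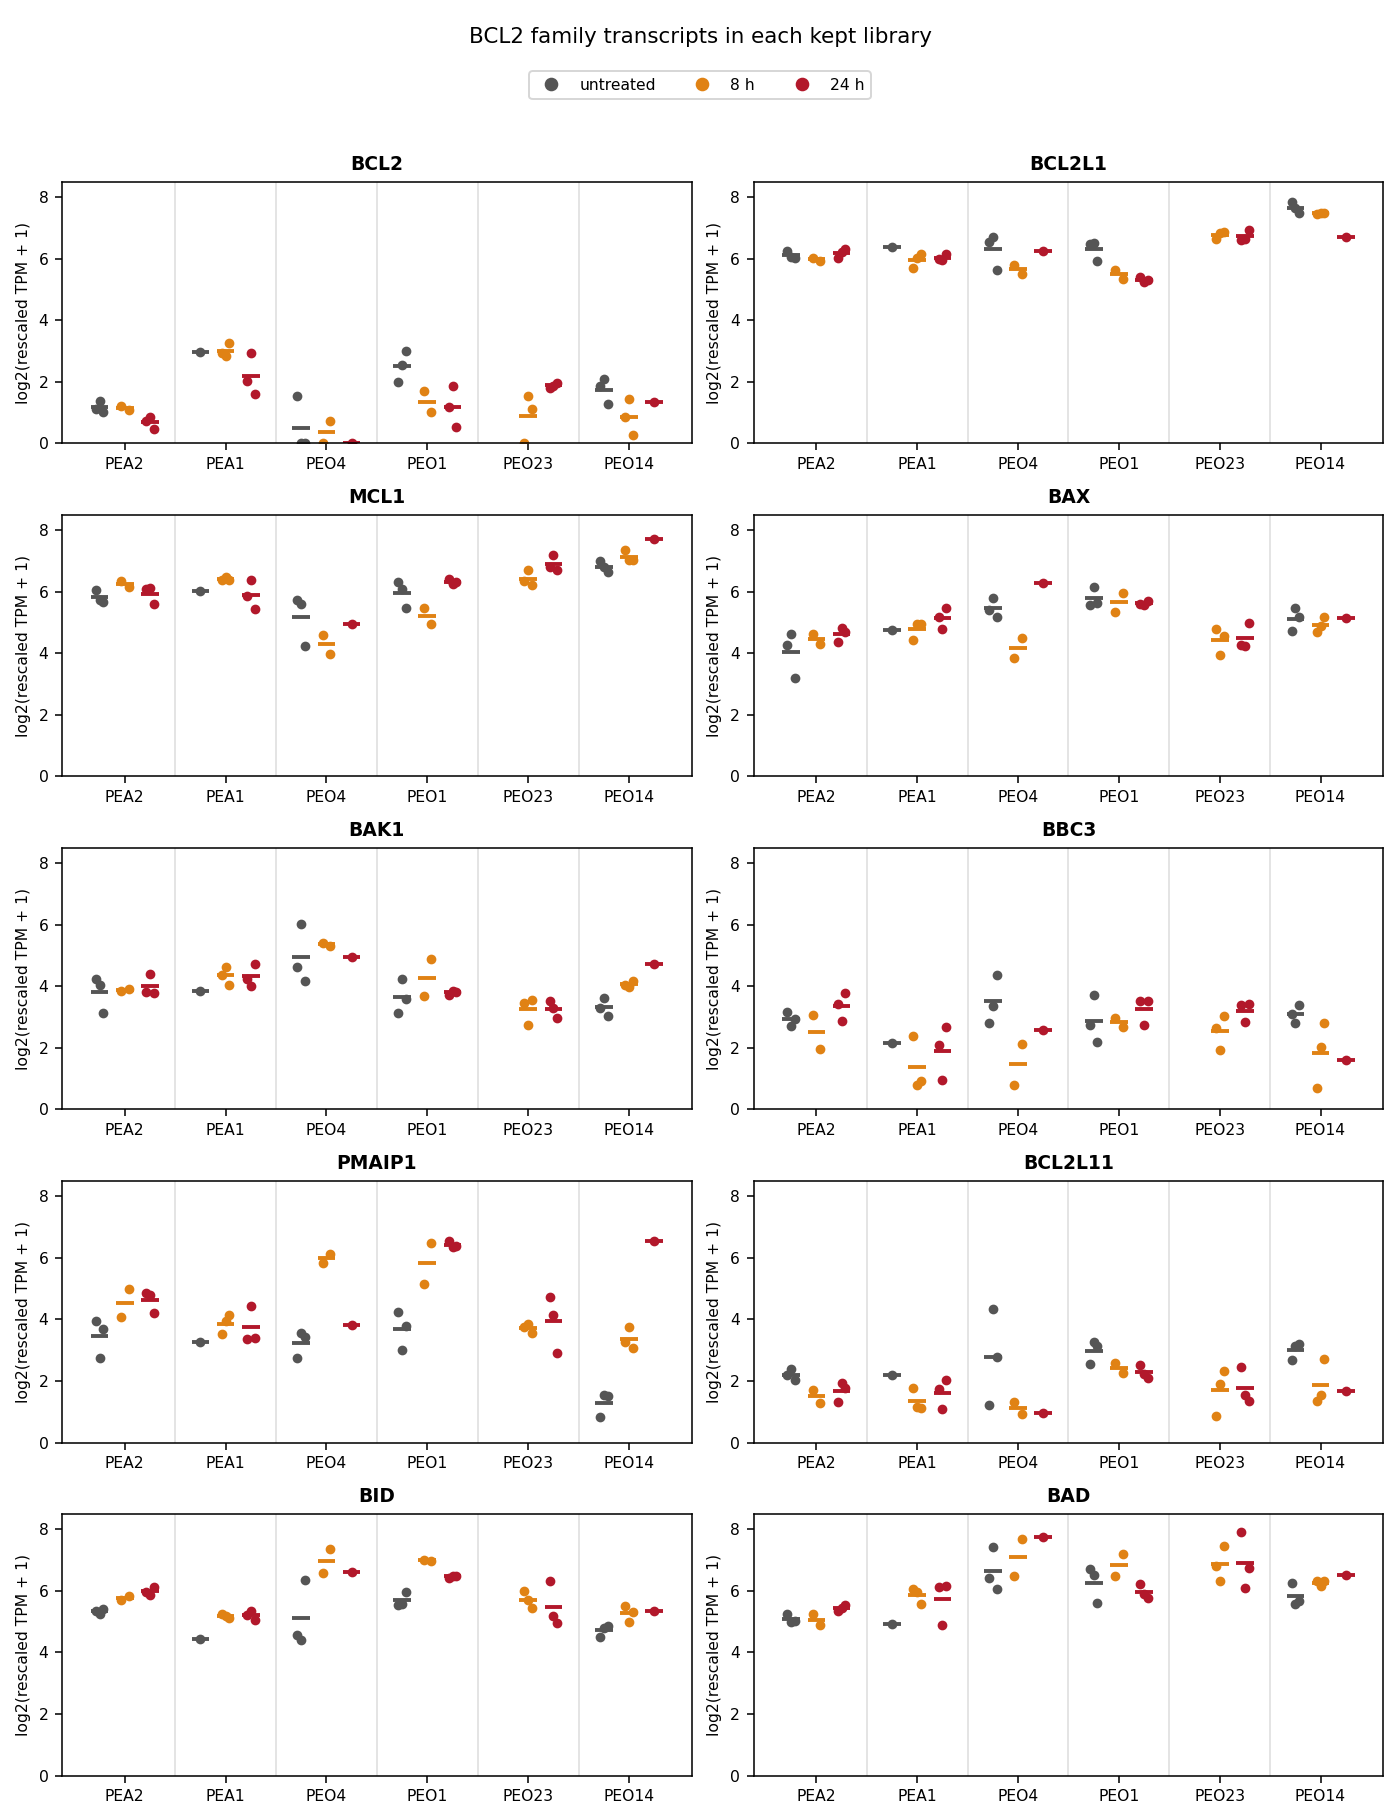
log2(rescaled TPM + 1) of each gene in each of the 42 kept libraries, by line and time (grey untreated, orange 8 h, red 24 h), with the group mean as a short line and each resistant line left of its sensitive partner. The PMAIP1 panel shows all treated points above the untreated points in PEA2, PEO4, PEO1 and PEO14, and the BCL2 panel shows the highest point in PEA1.

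The DNA just before the start of PMAIP1 and BID, which rose in the mean over lines at both times, is given beside that of BCL2L11, which fell at both times. The sequences are RefSeq windows of 250 bases on GRCh38.p14, whereas the submitters' notes give hg19, so no coordinate was carried over. PMAIP1 is at chr18:59899746-59899995 on the plus strand, BID at chr22:17774470-17774719 on the minus strand (the first of 5 listed windows) and BCL2L11 at chr2:111120664-111120913 on the plus strand. Capitals mark the letters TGACG, the core of the cAMP response element that ATF and CREB factors bind, and GGGCGG, the GC box, on either strand.
PMAIP1: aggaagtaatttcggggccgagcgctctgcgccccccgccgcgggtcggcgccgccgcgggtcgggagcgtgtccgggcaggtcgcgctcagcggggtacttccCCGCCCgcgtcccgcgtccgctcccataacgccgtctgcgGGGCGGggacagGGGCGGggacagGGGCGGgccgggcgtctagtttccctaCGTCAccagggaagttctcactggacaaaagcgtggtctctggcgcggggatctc
BID: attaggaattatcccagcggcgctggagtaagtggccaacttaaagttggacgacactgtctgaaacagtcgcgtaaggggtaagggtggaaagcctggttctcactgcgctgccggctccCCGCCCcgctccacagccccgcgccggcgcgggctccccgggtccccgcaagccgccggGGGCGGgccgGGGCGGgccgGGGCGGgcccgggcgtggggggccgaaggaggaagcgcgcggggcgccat
BCL2L11: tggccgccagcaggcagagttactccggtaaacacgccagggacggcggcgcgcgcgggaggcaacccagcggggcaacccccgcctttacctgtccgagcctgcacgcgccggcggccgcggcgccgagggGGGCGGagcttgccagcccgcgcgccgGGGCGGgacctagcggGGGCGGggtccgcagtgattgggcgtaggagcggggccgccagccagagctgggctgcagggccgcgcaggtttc
TGACG was found once in the PMAIP1 window, on the opposite strand, 55 bases before the start, and not in the windows of BID or BCL2L11. GGGCGG was found 4 times in PMAIP1, 4 times in BID and 3 times in BCL2L11. No marked stretch overlapped another in these windows. Of 35116 windows of the same length in the table, 21.2% held TGACG and 42.6% held GGGCGG. Of the 10 family genes, 9 were matched in the table (MCL1 was not), and in their first window 5 held TGACG, 6 held GGGCGG, 2 held the E-box CACGTG (6.34% of all windows) and 1, BAK1, held a p53 core motif (5.57% of all windows). BAX held 4 copies of CACGTG. The 5 genes with TGACG were PMAIP1, BAD, BAX, BCL2 and BCL2L1. In the mean over lines at 24 h, PMAIP1 and BAD were called higher, BCL2 and BCL2L1 lower, and BAX was not called. A match of letters is a description and shows no binding.

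BID, the BH3-only gene that links death receptors to mitochondria, was called higher at 8 h in PEO4 and PEO1. It was at 94.1 and 164.5 rescaled TPM in PEO4 cells treated for 8 h, against 22.7, 20.2 and 80.6 in untreated PEO4 cells, and at 97.1 at 24 h. In PEO1 it was at 129 and 125 at 8 h and at 84.7, 89.3 and 89.3 at 24 h, against 45.9, 46.5 and 61.0 untreated. All treated libraries of both lines lay above the untreated libraries. The change in PEO4 was 1.86 (SE 0.37, adjusted p = 0.00011) at 8 h and 1.51 (SE 0.47, adjusted p = 0.0231) at 24 h, and in PEO1 it was 1.30 (SE 0.37, adjusted p = 0.00568) at 8 h and 0.78 (SE 0.33, adjusted p = 0.0651) at 24 h. The 24 h call in PEO4 was lost without untreated library 1 (1.24, adjusted p = 0.0703) or 2 (1.13, adjusted p = 0.077). Without rescaling the 8 h changes were 0.23 (adjusted p = 0.739) in PEO4 and -0.41 (adjusted p = 0.512) in PEO1, a reversed sign. Elsewhere BID was positive but not called, between 0.43 in PEA2 and 0.74 in PEA1 at 8 h and between 0.63 in PEO14 and 0.77 in PEA1 at 24 h.

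BBC3 and BCL2L11, the PUMA and BIM genes, went the other way from PMAIP1 in PEO4. BBC3 was at 0.738 and 3.41 rescaled TPM in PEO4 at 8 h, against 5.96, 9.25 and 19.8 untreated. BCL2L11 was at 1.48 and 0.909 at 8 h, against 1.34, 19.3 and 5.80 untreated, and here the groups overlapped. BBC3 fell by 2.04 (SE 0.59, adjusted p = 0.0046) and BCL2L11 fell by 1.66 (SE 0.55, adjusted p = 0.0121). The BBC3 call was lost without PEO4 library 1 at 8 h (-1.37, adjusted p = 0.128), and the BCL2L11 call without untreated library 2 (-0.93, adjusted p = 0.118) or library 2 at 8 h (-1.44, adjusted p = 0.104). In no other line did a test of these 2 genes against untreated pass. BCL2L11 was nonetheless negative in 5 of 5 lines at both times, from -1.66 to -0.55 at 8 h and from -1.82 to -0.53 at 24 h. PEO14 illustrates it with 1.56, 1.91 and 5.54 at 8 h, against 5.36, 7.71 and 8.23 untreated, where 1 treated library overlapped. BCL2L11 lies opposite to the MIR4435-2HG gene and BBC3 to MIR3190, and as the strand setting of the counting is not stated in the labels or notes, their levels are uncertain.

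BAD, the BH3-only gene controlled by growth factor signalling, was not called in any line at either time against untreated. Its largest changes were 0.96 (SE 0.57, adjusted p = 0.406) in PEA1 at 8 h and 1.10 (SE 0.57, adjusted p = 0.178) in PEO4 at 24 h. In PEO23 it varied from 67.6 to 242.6 rescaled TPM between the 3 libraries at 24 h alone. BAD lies opposite to GPR137, so its level is uncertain in the same way.

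Among the pro-survival genes, BCL2L1 (BCL-XL) fell in 3 lines. In PEO1 it was at 49.1 and 39.3 rescaled TPM at 8 h and 41.7, 36.9 and 38.4 at 24 h, against 88.1, 89.8 and 60.1 untreated. In PEO14 it was at 104 in the single 24 h library, against 174, 180 and 178 at 8 h and 227, 200.2 and 177 untreated. All treated PEO1 libraries lay below the untreated ones, and PEO14 departed only at 24 h. The change in PEO1 was -0.82 (SE 0.23, adjusted p = 0.00554) at 8 h and -0.98 (SE 0.21, adjusted p = 0.00044) at 24 h, and in PEO14 it was -0.94 (SE 0.29, adjusted p = 0.0132) at 24 h. PEO4 had 54.6 and 44.8 at 8 h, against 92.7, 103.8 and 49.0 untreated, with a change of -0.65 (SE 0.23, adjusted p = 0.0201), and its groups overlapped. That call was lost without untreated library 1 (-0.53, adjusted p = 0.0794), untreated library 2 (-0.53, adjusted p = 0.0713) or library 2 at 8 h (-0.45, adjusted p = 0.226), and the PEO1 call at 8 h without library 2 at 8 h (-0.66, adjusted p = 0.103). BCL2L1 shares its locus with the opposite-strand genes ABALON and AL117381.1, so its level is uncertain in the same way.

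MCL1, the short-lived partner that NOXA binds, did not move in a common direction. It fell in PEO4 at 8 h, with 23.1 and 14.8 rescaled TPM, against 52.4, 47.1 and 17.8 untreated, an overlap of 1 library. The change was -0.89 (SE 0.33, adjusted p = 0.0222), and the call was lost without untreated library 1 (-0.63, adjusted p = 0.128), untreated library 2 (-0.78, adjusted p = 0.0664) or library 2 at 8 h (-0.54, adjusted p = 0.311). PEO1 was at 43.8 and 29.9 at 8 h and at 84.6, 75.1 and 79.1 at 24 h, against 78.0, 67.8 and 43.0 untreated, so its 2 treated times lay on either side of the untreated mean, with -0.74 (adjusted p = 0.0712) and 0.38 (adjusted p = 0.342). PEO14 was at 163, 131 and 130.0 at 8 h and at 209 in the 24 h library, against 128, 110 and 99.3 untreated, with 0.33 (adjusted p = 0.445) and 0.90 (adjusted p = 0.0902).

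BCL2, the target of the drug venetoclax, was low everywhere and fell in PEO1. It was at 1.25, 2.66 and 0.444 rescaled TPM at 24 h and at 2.23 and 1.03 at 8 h, against 2.98, 4.88 and 7.05 untreated. No treated PEO1 library reached the untreated range. The change was -1.33 (SE 0.43, adjusted p = 0.0144) at 24 h and -1.16 (SE 0.48, adjusted p = 0.0509) at 8 h, and the 24 h call was lost without untreated library 3 (-1.08, adjusted p = 0.0703) or library 3 at 24 h (-0.998, adjusted p = 0.103). With a pseudocount of 0.1 in place of 1 this call did not pass. BCL2 also shares its locus with an opposite-strand gene, AC022726.2.

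Against untreated, the effector BAX was called in 1 of 5 lines at 8 h and BAK1 in 1 of 5 at 24 h. BAX, which moves from the cytosol into the mitochondrial membrane when activated, was at 13.4 and 21.4 rescaled TPM in PEO4 at 8 h and at 76.8 in the single 24 h library, against 41.7, 54.6 and 35.6 untreated. Its 8 h libraries lay below and its 24 h library above every untreated library. The 8 h change was -1.30 (SE 0.35, adjusted p = 0.00218), lost without library 1 at 8 h (-0.98, adjusted p = 0.0641), and the 24 h change was 0.81 (SE 0.44, adjusted p = 0.196). BAK1, which sits in the outer membrane permanently, was at 25.7 in PEO14 at 24 h, against 8.92, 11.3 and 7.25 untreated, a change of 1.41 (SE 0.53, adjusted p = 0.0364). That call was lost without untreated library 1 (1.40, adjusted p = 0.0585) or 3 (1.27, adjusted p = 0.0846), and the change was 0.12 (adjusted p = 0.921) without rescaling. BAK1 has the near-identical copies BAK1P1 and BAK1P2 and lies opposite to GGNBP1, so its level is uncertain.

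Averaged over the 5 lines with untreated libraries, PMAIP1 and BID were higher and BCL2L1 and BCL2L11 lower at both times. At 8 h 7 of 10 genes were called, 4 higher and 3 lower, where 63.6% of all genes were (23.9% higher, 39.7% lower). PMAIP1 was up by 1.73 (SE 0.22, adjusted p = 5.12e-08) and BID by 0.98 (SE 0.17, adjusted p = 1.55e-05), and both were positive in 5 of 5 lines. BCL2L11 fell by 0.98 (SE 0.26, adjusted p = 0.00143), BBC3 fell by 0.91 (SE 0.28, adjusted p = 0.0051) and BCL2L1 fell by 0.43 (SE 0.11, adjusted p = 0.000905), each negative in 5 of 5 lines. BAK1 (0.47, adjusted p = 0.0362) and BAD (0.48, adjusted p = 0.0479) were called higher, but reversed to -0.44 (adjusted p = 0.0654) and -0.47 (adjusted p = 0.0117) without rescaling. Their calls were also lost on leaving out any of 9 and of 15 libraries out of 24. The values in those runs were 0.35 to 0.463 for BAK1 and 0.392 to 0.491 for BAD.

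At 24 h 6 of 10 genes were called in the mean, 3 higher and 3 lower, where 56.8% of all genes were (21.7% higher, 35.2% lower). PMAIP1 was up by 2.04 (SE 0.23, adjusted p = 1.97e-08) and BID by 0.87 (SE 0.19, adjusted p = 0.000259). BCL2L11 fell by 0.99 (SE 0.28, adjusted p = 0.00331), BCL2 fell by 0.70 (SE 0.24, adjusted p = 0.0148) and BCL2L1 fell by 0.44 (SE 0.12, adjusted p = 0.00198). BCL2 was negative in 5 of 5 lines, and BCL2L1 in 4 of 5. BAD was at 0.53 (SE 0.23, adjusted p = 0.0499), which turned to -0.14 (adjusted p = 0.513) without rescaling and was not called on leaving out any of 15 of 21 libraries. It was lost in 7 of 7 other settings, with the replicate number as a block among them (0.54, adjusted p = 0.0502). The PMAIP1 means held in every alternative run, at 0.85 to 1.91 for 8 h and 1.45 to 2.23 for 24 h. The BID means did not pass without rescaling, at 0.03 (adjusted p = 0.903) for 8 h and 0.21 (adjusted p = 0.466) for 24 h. Transcript length moved with the changes of all genes. The median mean change at 24 h was 0.05 among the shortest genes (longest transcript up to 2087 bases) and -0.44 among the longest (over 5102 bases), and at 8 h it was 0 and -0.41. PMAIP1 (1948 bases), BBC3 (1838), BAX (1358) and BAD (1157) belong to the shortest genes and BCL2 (7461) and BCL2L11 (5231) to the longest. The part of length in these changes was not tested.

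Between 8 h and 24 h of drug, the calls among the 10 genes came from PEO4 and PEO14. Of 60 tests 3 were called, 2 higher and 1 lower, where 2.88% of all tests of all genes were (1.40% higher, 1.48% lower). BAX in PEO4 was higher at 24 h by 2.11 (SE 0.47, adjusted p = 0.0054), and PMAIP1 in the same line was lower, with a change of -2.16 (SE 0.62, adjusted p = 0.0222). PMAIP1 in PEO14 was higher at 24 h by 3.17 (SE 0.59, adjusted p = 0.00326). Each of the 3 rests on a single library at 24 h. Cultures of a line that carry the same replicate number at 8 h and 24 h share a passage label in 18 of 18 cases, and with the cultures as blocks in the model BAX in PEO4 was at 1.79 (adjusted p = 0.0328), PMAIP1 in PEO4 at -2.31 (adjusted p = 0.0743) and PMAIP1 in PEO14 at 3.26 (adjusted p = 0.154). The BAX call was lost in 4 of 10 other settings, such as with all 54 libraries and with only the lines compared in the model, and its value ran from 0.91 to 3.14. Without library 2 at 8 h PMAIP1 in PEO4 was at -2.04 (adjusted p = 0.122). The mean of 6 lines gave no call by limma, with 3 genes at an unadjusted p under 0.05 and 1.54% of all genes called. The largest of these means was BAX at 0.48 (adjusted p = 0.11).

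BCL2 was lower in PEO4 than in PEO1 without drug, and lower in PEA2 than in PEA1 in drug. Untreated, 3 of 20 tests were called, 1 higher and 2 lower in the resistant line, where 20.0% of all tests of all genes were (10.9% higher, 9.10% lower). PEO4 cells had 1.89, 0 and 0 rescaled TPM of BCL2, against 2.98, 4.88 and 7.05 in PEO1 cells, a difference of -2.01 (SE 0.43, adjusted p = 0.000628). The 2 lines did not overlap, and 2 of the 3 PEO4 libraries listed the gene at 0. BAK1 was at 23.8, 64.9 and 17.0 in PEO4, against 7.84, 18.0 and 11.1 in PEO1 (1.28, SE 0.37, adjusted p = 0.00989), with an overlap of 1 library on either side. MCL1 was at 52.4, 47.1 and 17.8 in PEO4, against 78.0, 67.8 and 43.0 in PEO1 (-0.77, SE 0.29, adjusted p = 0.0482). The BAK1 call was lost without PEO4 library 2 (0.75, adjusted p = 0.117) or PEO1 library 1 (1.02, adjusted p = 0.0711). The MCL1 call was lost without PEO4 library 3 (-0.28, adjusted p = 0.456), PEO1 library 1 (-0.60, adjusted p = 0.199) or PEO1 library 2 (-0.70, adjusted p = 0.12), and in 9 of 10 other settings. PEA2 against PEA1 gave no call by limma (1 gene at an unadjusted p under 0.05, 11.6% of all genes called): BCL2 was at 1.16, 1.60 and 1.04 in PEA2, against 6.80 in the single PEA1 library (-1.79, SE 0.60, adjusted p = 0.0511).

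**Figure D4:**
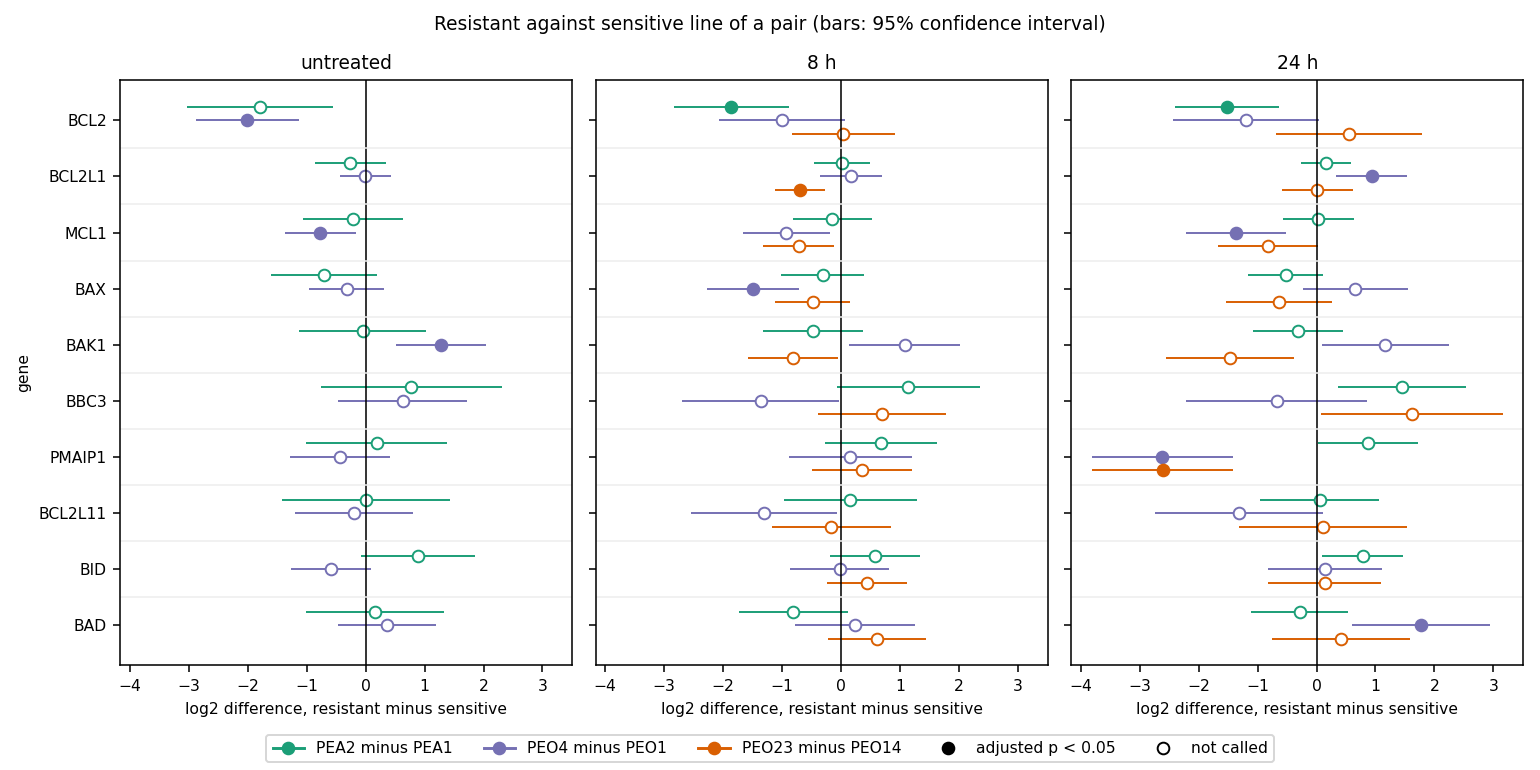
Difference of each gene between the resistant and the sensitive line of a pair, as log2(rescaled TPM + 1), untreated, at 8 h and at 24 h, with 95% confidence intervals from the limma model and filled points for an adjusted p under 0.05. BCL2 is negative in PEA2 against PEA1 at all 3 times, and PMAIP1 at 24 h is negative in both PEO pairs (-2.61 in each) and positive in the PEA pair (0.88).

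In drug for 8 h 3 of 30 tests were called, all 3 lower in the resistant line, where 13.6% of all tests of all genes were (6.82% higher, 6.81% lower). PEA2 had 1.31 and 1.13 rescaled TPM of BCL2, against 6.67, 6.13 and 8.59 TPM in its partner PEA1 (-1.86, SE 0.48, adjusted p = 0.0056). BAX was at 13.4 and 21.4 in PEO4, against 39.9 and 61.7 in PEO1 (-1.49, SE 0.38, adjusted p = 0.00869). PEO23 had 97.8, 113 and 115 TPM of BCL2L1, against 174, 180 and 178 TPM in its partner PEO14 (-0.70, SE 0.21, adjusted p = 0.0204). None of these groups overlapped. The BCL2 call was lost without PEA2 library 3 (-1.80, adjusted p = 0.0652), and the BAX call without PEO4 library 1 (-1.17, adjusted p = 0.096) or PEO1 library 2 (-1.19, adjusted p = 0.123). The BCL2L1 call was lost without PEO23 library 1 (-0.62, adjusted p = 0.091), PEO14 library 2 (-0.69, adjusted p = 0.0577) or PEO14 library 3 (-0.70, adjusted p = 0.0596).

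At 24 h 6 of 30 tests were called, 2 higher and 4 lower in the resistant line, where 15.2% of all tests of all genes were (8.18% higher, 6.97% lower). PMAIP1 was at 13.1 rescaled TPM in the PEO4 library, against 92.6, 81.2 and 82.6 in PEO1, and PEO23 had 25.5, 16.8 and 6.54 TPM, against 92.0 TPM in the single PEO14 library. Both differences were -2.61 (SE 0.59 each), with an adjusted p of 0.00186 for PEO4 and of 0.00619 for PEO23. The groups lay far apart in both pairs, and in the PEA pair the order was turned, with 28.3, 26.6 and 17.4 in PEA2, against 9.37, 20.8 and 9.61 in PEA1 (0.88, 95% confidence interval 0.03 to 1.72, adjusted p = 0.158). The PEO4 difference held in every alternative run, from -4.25 to -2.55, and the PEO23 difference was not called in 5 of 9 settings, such as without rescaling (-2.35, adjusted p = 0.087) and with all 54 libraries (-1.68, adjusted p = 0.3). The 2 PEO14 libraries at 24 h that had been left out had 34.6 and 13.4 deposited TPM of PMAIP1, against 53.3 deposited TPM in the kept library. MCL1 was at 30.1 in PEO4, against 84.6, 75.1 and 79.1 in PEO1 (-1.37, SE 0.42, adjusted p = 0.018), a call lost in 4 of 9 other settings, such as without rescaling and with only the lines compared in the model. BCL2L1 was at 75.5 in PEO4, against 41.7, 36.9 and 38.4 in PEO1 (0.94, SE 0.29, adjusted p = 0.0222), and BAD at 213 in PEO4, against 73.6, 59.4 and 53.7 in PEO1 (1.77, SE 0.57, adjusted p = 0.0263). BCL2L1 was not called without PEO1 library 2 (0.90, adjusted p = 0.0506), nor was BAD without PEO1 library 2 (1.75, adjusted p = 0.0509) or 3 (1.67, adjusted p = 0.059). BCL2 was at 0.643, 0.812 and 0.385 in PEA2, against 3.09, 6.72 and 2.06 in PEA1 (-1.52, SE 0.43, adjusted p = 0.0103), lost without PEA1 library 2 (-1.14, adjusted p = 0.092).

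Over the 3 pairs the resistant lines were lower in 3 genes at 8 h and in 2 at 24 h. At 8 h 3 of 10 genes were called, where 17.7% of all genes were (9.03% lower). They were BCL2 (-0.94, SE 0.28, adjusted p = 0.0161), MCL1 (-0.60, SE 0.19, adjusted p = 0.0261) and BAX (-0.76, SE 0.20, adjusted p = 0.00689). BAX and MCL1 were negative in 3 of 3 pairs and BCL2 in 2 of 3. Each of the 3 calls was lost in 5 of 9 other settings, that of BAX without any 1 of the 3 replicate numbers and with all 54 libraries. Over all settings and leave-outs BAX ran from -1.07 to -0.65 (adjusted p up to 0.716), BCL2 from -1.77 to -0.60 (up to 0.407) and MCL1 from -0.92 to -0.49 (up to 0.806). The BCL2 call was lost without PEO4 library 1 (-0.82, adjusted p = 0.0544) or PEO1 library 1 (-0.83, adjusted p = 0.07). The MCL1 call was lost without PEA2 library 3 (-0.57, adjusted p = 0.0767), PEO4 library 2 (-0.49, adjusted p = 0.122) or PEO1 library 1 (-0.51, adjusted p = 0.108). At 24 h 2 of 10 genes were called, where 19.9% of all genes were (8.84% lower): PMAIP1 (-1.45, SE 0.31, adjusted p = 0.0011) and MCL1 (-0.72, SE 0.22, adjusted p = 0.0197), each negative in 2 of 3 pairs. The MCL1 call was lost in 3 of 7 other settings (adjusted p up to 0.6) and the PMAIP1 call in 2 of 7 (adjusted p up to 0.0591).

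The carboplatin response itself was not shown to differ between partners. In 70 tests of the difference of the change within a pair, limma called none, where 0.779% of all tests of all genes were called (0.307% higher, 0.472% lower), and 7 were at an unadjusted p under 0.05. The PMAIP1 change against untreated at 24 h differed by -2.18 between PEO4 and PEO1 (SE 0.72, 95% confidence interval -3.65 to -0.71, adjusted p = 0.139). Its change from 8 h to 24 h differed by -2.77 (SE 0.77, adjusted p = 0.0786) in that pair and by -2.96 (SE 0.72, adjusted p = 0.0753) between PEO23 and PEO14. BAX went the other way in PEO4 against PEO1, at 2.16 (SE 0.58, adjusted p = 0.0686). Each of these values involves a single library at 24 h.

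Around the family, the 3 outer membrane channel genes and CYCS and DIABLO, whose proteins are released through that membrane, were higher in the mean of 5 lines, where 23.9% and 21.7% of all genes were called higher at 8 h and 24 h and the medians of all genes were -0.22 and -0.19. CYCS, which encodes cytochrome c, was up by 2.23 (SE 0.23, adjusted p = 1.35e-09) at 8 h and by 1.84 (SE 0.25, adjusted p = 3.09e-07) at 24 h. DIABLO, an antagonist of the inhibitors of apoptosis, was up by 0.92 and 0.55 (adjusted p = 1.44e-05 and 0.00858). All 3 outer membrane channel genes rose at both times, led by VDAC3 at 2.16 (SE 0.20, adjusted p = 1.43e-10) and 1.67 (SE 0.21, adjusted p = 1.42e-07). CYCS and the VDAC genes have many processed pseudogenes, so their levels are uncertain.

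In the same means, 23.9% of all genes were called higher and 39.7% lower at 8 h, and 21.7% higher and 35.2% lower at 24 h, and the counts of the other apoptosis lists are read against these shares. Of 11 tested further BCL2 family genes 2 rose and 3 fell at 8 h, and 2 rose and 2 fell at 24 h. BNIP3L, a mitophagy receptor, was up by 1.02 and 1.20 (adjusted p = 4.07e-08 and 1.72e-08), and BCL2L14 was down, at -2.02 and -1.96 (adjusted p = 9.97e-08 and 1.06e-06). Of 8 inhibitor of apoptosis genes with CFLAR, 3 rose and 2 fell at 8 h and 3 rose and 3 fell at 24 h: BIRC2 was up by 1.73 and 1.33 and BIRC5 (survivin) by 1.28 and 0.76, whereas NAIP was at -2.97 and -2.94, with partial copies in the genome that make its level uncertain. Of 10 tested death receptor genes 3 rose and 0 fell at each time, with FAS at 1.56 (SE 0.19, adjusted p = 3.19e-08) and 0.87 (SE 0.21, adjusted p = 0.000645). TNFSF10, the TRAIL gene, was at 0.55 and 0.50 and not called.

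The genes that act on MCL1 protein or on BH3-only transcription included 2 that moved in every line at 24 h. HUWE1, which encodes a ubiquitin ligase that marks MCL1 for degradation, was called lower in 5 of 5 lines at both times. Its group means in PEO1 were 131 rescaled TPM untreated, 17.8 at 8 h and 32.5 at 24 h, and the mean change over lines was -2.04 (SE 0.14, adjusted p = 9.74e-13) and -2.07 (SE 0.16, adjusted p = 6.68e-12). Of the 5 tested MCL1 turnover genes 2 rose and 2 fell at 8 h, and 1 rose and 3 fell at 24 h, where the shares of all genes were 23.9% higher and 39.7% lower at 8 h and 21.7% and 35.2% at 24 h. CDC20 was at 0.34 (adjusted p = 0.00686) and -0.29 (adjusted p = 0.0346). ATF4, the stress-response factor known to drive PMAIP1, was called higher in 4 of 5 lines at 8 h and in 5 of 5 at 24 h, with mean changes of 1.07 (SE 0.12, adjusted p = 3.87e-09) and 1.19 (SE 0.13, adjusted p = 4.03e-09). ATF3, its partner at many promoters, was called higher in 2 lines at 8 h and 3 at 24 h (means 1.10 and 2.16, adjusted p = 2.83e-05 and 2.54e-09). In PEO1 ATF3 was at 3.98 rescaled TPM on average untreated, 10.0 at 8 h and 56.1 at 24 h, and in PEO14 at 8.46, 13.4 and 69.7. TP73 was at -2.22 and -1.85 (adjusted p = 7.85e-09 and 1.18e-06). Of the 10 regulators 2 rose and 5 fell at 8 h, and 3 rose and 4 fell at 24 h, against the same shares of all genes. BIK, a BH3-only gene outside the 10, was higher in the resistant lines in the mean of pairs at 8 h (1.37, SE 0.49, adjusted p = 0.0484). Of the pairs it was called in PEA2 against PEA1 (3.96, adjusted p = 0.000846), with group means of 27.4 rescaled TPM in PEA2 and 0.987 in PEA1, and not in the other two, with 7.14 in PEO4 and 5.59 in PEO1, and 4.23 in PEO23 and 3.98 in PEO14.

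**Figure D5:**
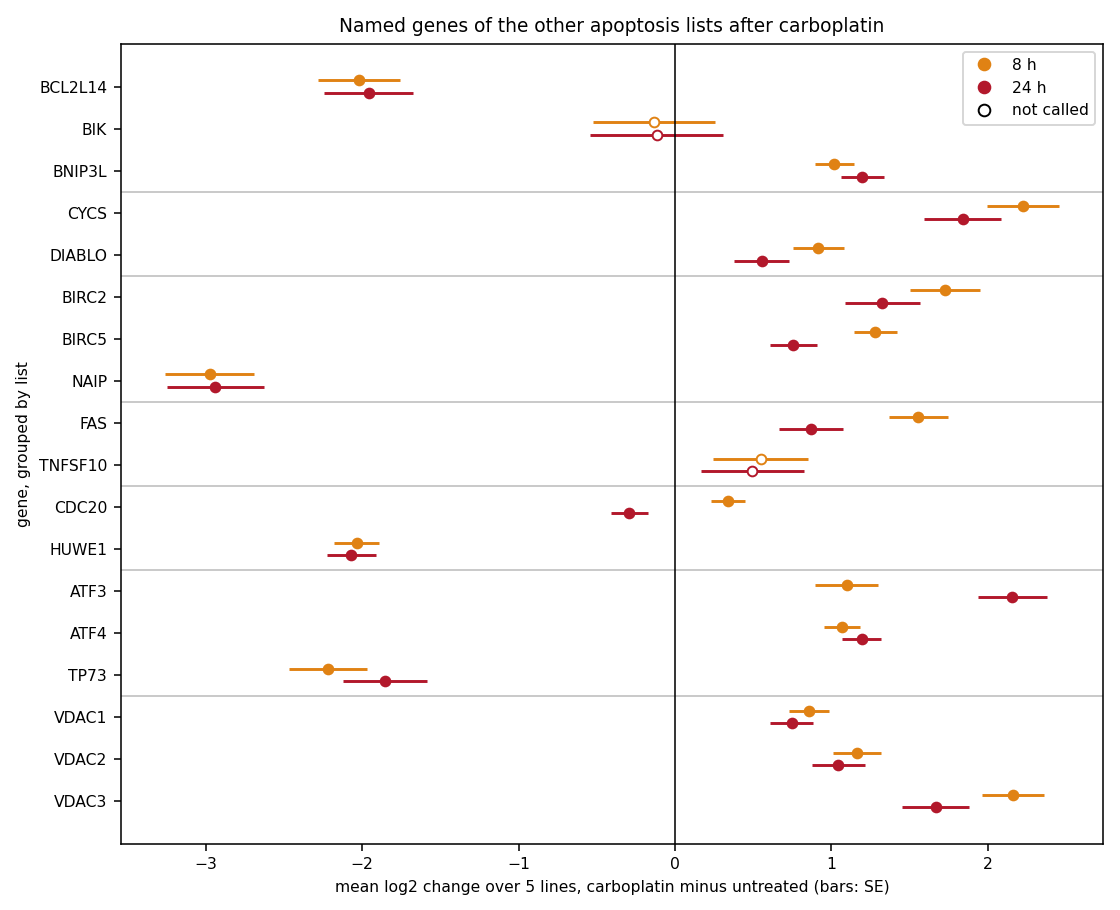
Mean change over 5 lines of the named genes outside the 10, as log2(rescaled TPM + 1), carboplatin minus untreated, at 8 h (orange) and 24 h (red), with bars of 1 SE, open points for genes not called and horizontal lines between the lists. The channel genes, CYCS and DIABLO lie to the right of 0 while HUWE1, NAIP, TP73 and BCL2L14 lie to the left.

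Across the 17 groups, the genes whose group means ran most like PMAIP1 were RNF138 (Pearson r = 0.91), USP1 (0.909) and THAP1 (0.908), of 9149 genes with enough signal. For BID they were DDX39A (0.955), VPS4B (0.935) and SMARCE1 (0.925), for BAD LSM4 (0.952), RAD9A (0.947) and NUDT14 (0.939), and for BCL2L1 THBS3 (0.949), CD81 (0.918) and CHID1 (0.912). MCL1 was followed by PEA15 (0.935), BLCAP (0.915) and CERS2 (0.91), and BCL2L11 by WIPF2 (0.884), UBE2R2 (0.883) and SCAF11 (0.874). The leading values were 0.887 for BAX with RAB5C, 0.881 for BAK1 with ZMAT5, 0.823 for BBC3 with SLC12A7 and 0.822 for BCL2 with OTUD4. The groups share lines, libraries and scaling, and the genes were picked as the highest of many, so these values are descriptions only.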

How the data were processed

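Total RNA of 6 ovarian cancer cell lines was sequenced from TruSeq stranded total RNA libraries, per the labels' protocols. The authors' deposited table holds TPM per gene symbol for 54 libraries; its name gives RSEM, the submitters' processing notes give bcl2fastq 2.18 and hg19, while neither names an aligner, a gene annotation or how strand was counted. TPM keeps no read depth, so precision rests on the number of libraries. Libraries listing under 12000 genes above 0 (12 of 54) were left out. TPM was rescaled by the median ratio over 8287 genes, genes at 1 TPM or more in 3 libraries were kept (18013), and log2(rescaled TPM + 1) was fitted over 17 groups with limma 3.58.1 in R 4.3.3, with Benjamini-Hochberg adjustment per comparison at 0.05. The procedure was tested on simulated data with independent normal noise and no scaling differences, so that test does not cover the uneven libraries here. The members, the gene lists and the library filter were chosen with earlier results of these data known. Other genes were named where they were called in 1 direction in 3 or more lines or all pairs, or were among the 3 largest of a mean. Samples were grouped by their labels. Replicate numbers pair the 8 h and 24 h cultures, which share a passage label in 18 of 18 cases; the correlation of their deviations ran from -0.247 to 0.411 over 10 checked pairs. No treated culture shares a passage label with its untreated number. The alternatives were all 54 libraries, a minimum of 8000 genes, no rescaling, a pseudocount of 0.1, no filter, only the lines compared, a replicate block and leaving out libraries. With all 54 libraries the median ratio rested on 392 genes. Promoter windows are from RefSeq on GRCh38.p14. MARCH5 could not be matched because 28 symbols in the table had turned into dates. Some genes that the rule names are not reported here.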

Additional observations from a re-analysis of the deposited data

How the results depend on the processing

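Of 51 calls on the 10 genes, 50 held with the replicate number as a block (the mean of BAD at 24 h did not, at an adjusted p of 0.0502), 48 without the filter, 43 with a pseudocount of 0.1, 31 without rescaling, 21 with libraries of at least 8000 genes and 10 with all 54 libraries. In models of only the lines compared 17 of 33 held, and with cultures as blocks 1 of 3. Without rescaling 4 calls changed sign: BID in PEO1 at 8 h was at -0.409, the mean of BAD at -0.471 for 8 h and -0.14 for 24 h, and the mean of BAK1 at -0.438 for 8 h. The cause was not tested.

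The number of calls moved as follows. With all 54 libraries it was 1 for 8 h and 3 for 24 h against untreated, 0 for 24 h against 8 h, 0, 1 and 1 for resistant against sensitive lines untreated, at 8 h and at 24 h, and 4 for the means. With libraries of at least 8000 genes it was 3 for 8 h against untreated, 1 for 24 h against 8 h, 1 for untreated partners and 8 for the means. Without rescaling it was 17 for 8 h against untreated, and 5 and 3 for partners at 8 h and 24 h. With only the lines compared it was 1 for 24 h against 8 h, and 5 and 3 for partners at 8 h and 24 h. The replicate block gave 5 calls for partners at 8 h, where the model without it gave 3, and moved no other count by over 1.5 times. Leaving out 1 library or 1 replicate number gave 4 to 14 calls for 8 h and 4 to 10 for 24 h against untreated, 1 to 3 for 24 h against 8 h, 1 to 4, 0 to 3 and 1 to 7 for partners untreated, at 8 h and at 24 h, 0 to 20 for the means and 0 to 1 for the difference of changes. A single call for that difference came without any 1 of 6 libraries: untreated PEA2 replicate 3, untreated PEO4 replicates 2 and 3, PEO1 replicate 2 at 8 h, and PEO23 replicates 1 and 3 at 24 h. Groups of 1 library and the unknown depth limit every value at 24 h in PEO4 and PEO14.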
